A study of Mus musculus with 12 samples.

Results

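Autophagy genes were examined in M1-activated macrophages grown from bone marrow (BM-Mɸs), taken from mice labelled with or without a myeloid deletion of the receptor tyrosine kinase ErbB4. The set held the 19 genes named Atg followed by a digit and 20 further genes taken by name, from the ULK kinases to the cargo receptors. It came to 39 of the 22243 genes in the table. ErbB4myeKO mice carry LoxP-flanked ErbB4 together with LysMCre, which is inserted in the lysozyme gene Lyz2 and recombines in myeloid cells. Their ErbB4FF littermates carry the LoxP-flanked ErbB4 without the recombinase. All mice were on the C57Bl/6 strain background, and 1 mouse of each genotype came from each of 6 litters, which gave 12 cultures and 12 libraries of poly(A) RNA. Marrow was grown in CMG14-12 conditioned medium as a source of M-CSF, and every culture was exposed to IFN-γ (100 U/mL, 16 h) before LPS (100 ng/mL, 6 h), so that no unstimulated cells entered the comparison. The labels give neither the age nor the sex of the mice. The comparison asked whether the RNA of autophagy genes differed between activated macrophages of the 2 genotypes.

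Autophagy encloses cytoplasm in a double membrane that fuses with the lysosome. The ULK complex starts the process, the class III phosphatidylinositol 3-kinase complexes mark the membrane, ATG9 and ATG2 bring lipid, and the conjugation enzymes attach proteins of the ATG8 family (LC3 and GABARAP) to the growing membrane. Cargo receptors such as SQSTM1, also called p62, hold cargo at one end and ATG8 proteins at the other, and in macrophages the same machinery clears bacteria and damaged mitochondria and restrains inflammasomes.

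Levels are given in TPM, an estimate of abundance relative to all transcripts that is corrected for transcript length, summed over the listed transcripts of a gene. Differences are log2 ratios of (TPM + 0.5) from the library labelled ErbB4myeKO to the littermate library labelled ErbB4FF. The added 0.5 understates the change of genes near 0. The 8780 genes that averaged 1 TPM or more entered a limma model of genotype with the litter blocked, and Benjamini-Hochberg adjustment ran over all of them. The two-sided exact permutation test over the 64 swaps of genotype within litters can give no p below 0.0312. Erbb4 TPM, a value of the listed transcript as a whole, was between 0.280 and 0.852 in libraries labelled ErbB4myeKO and between 0.372 and 0.716 in those labelled ErbB4FF (exact permutation p = 0.250). Lyz2, where LysMCre is inserted, had log2 ratios of -0.97, -0.83, -1.15, -1.20, -0.81 and 1.43 in litters 1 to 6 (exact permutation p = 0.219), so that litter 6 alone went up. As neither gene gave every litter the same sign, libraries are named by their labels. All 7 macrophage markers were tested, and Adgre1 and Cd68 were at least 661.6 TPM and 314.2 TPM in every library. Nos2, a marker of M1 activation, ranged from 0 to 115 TPM in libraries labelled ErbB4myeKO and from 0 to 139 TPM in those labelled ErbB4FF. The other M1 markers were present in every library, with Tnf at 793.7 TPM or more, Cxcl10 at 1333, Il12b at 405, Il6 at 391 and Cd40 at 74.1. Of all genes tested, 3.83% were higher and 4.38% lower at an unadjusted p under 0.05, and of the macrophage list 1 of 7 (Fcgr1) was lower. Of the M1 list 1 of 6 was higher (Il12b) and 1 lower (Cxcl10), and of the proliferation list 1 of 3 was higher (Mki67). The other tested proliferation genes, Top2a and Cdk1, had mean log2 ratios of 0.12 and -0.22. The 8 neutrophil genes summed to between 39.6 and 371 TPM in libraries labelled ErbB4myeKO and to between 39.9 and 185 TPM in the others. Of the 4 tested, 1 was higher at that level (Camp, in 6 of 6 litters, at medians of 1.96 and 1.45 TPM). The other tested neutrophil genes went both ways, with mean log2 ratios of 0.30 for S100a8, -0.36 for Ngp and -0.24 for S100a9. The 5 dendritic genes summed to between 8.02 and 29.0 TPM and to between 2.82 and 22.3 TPM. Nearly all of this was Xcr1 (7.72 to 29.0 TPM and 2.56 to 22.1 TPM), the only one tested and higher. Zbtb46 was at most 0.394 TPM and lower in 4 of 6 litters (mean log2 ratio -0.18). Flt3 was at most 0.0789 TPM, and Cd209a and Siglech were at 0. The 6 lymphocyte genes summed to at most 0.654 TPM, and the 4 erythroid genes to at most 0.467 TPM with Alas2 and Hbb-bs at 0. Whether these other cells had a part in the results was not tested. In bulk RNA a smaller number of expressing cells cannot be told from less RNA per cell.

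Litter 5 stood apart from the other litters by transcript length. Against the mean of the other 5 litters, the median log2 difference of its libraries was 0.59 over 2939 tested genes under 2000 nt, -0.08 over 4477 genes from 2000 to under 5000 nt and -0.71 over 1364 genes of 5000 nt or more. The autophagy genes had the same signs in the shortest and longest class, with a median of 0.50 over 7 genes and of -0.99 over 6 genes, 4 of the 6 lower. The long Ambra1 (-3.19), Atg2a (-1.98) and Atg2b (-1.71) and the 4654-nt Nbr1 (-2.75) were at their lowest in litter 5 in both genotypes, with Nbr1 also at 0 in a library of litter 3. The short Map1lc3a (1.65) and Gabarap (0.60) and the 2532-nt Map1lc3b (0.87) were highest there. Other genes went against length, with the short Wipi2 (1959 nt) at -1.25, the long Uvrag (5157 nt) at 0.79 and Atg4b (4173 nt) at 0.60. In the middle class the 20 autophagy genes had a median of 0.09, opposite in sign to that of all genes. Sqstm1, at 2037 nt, differed by -0.89.

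**Figure D1:**
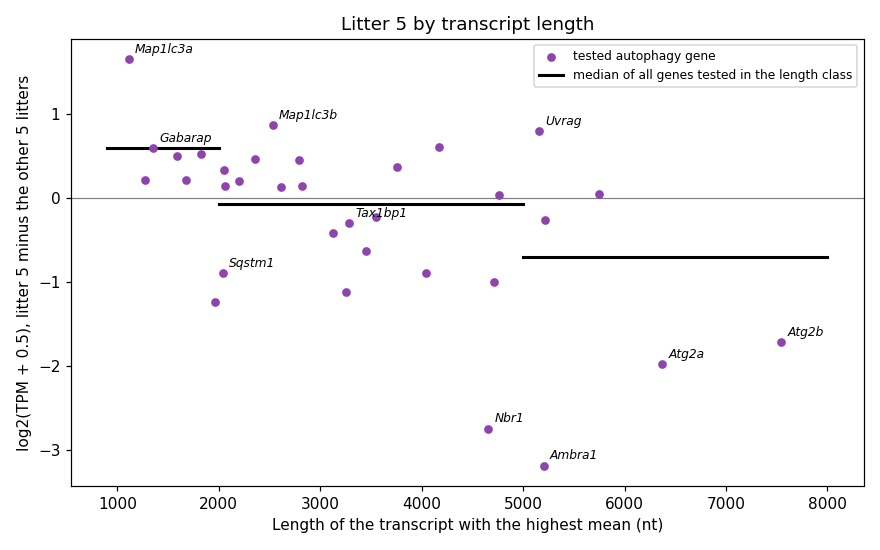
Mean log2(TPM + 0.5) of the litter 5 libraries minus that of the other 5 litters, for the 33 tested autophagy genes (points) by the length in nt of their most abundant listed transcript. The black lines are medians of all tested genes of a length class and step down from 0.59 to -0.71, and Ambra1, Nbr1, Atg2a and Atg2b lie at -1.71 or below.

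No autophagy gene differed between the genotypes past the threshold, and neither did any other of the 8780 genes tested. Of the 39 genes, 33 passed the filter and were tested. In limma 0 of the 33 had an adjusted p under 0.05, as did 0 of all 8780 genes (0%), and the smallest adjusted p was 0.603 in both. At an unadjusted p under 0.05 there were 3 of the 33 (9.09%) against 721 of all genes tested (8.21%), a share near that of the whole table. The 3 were all cargo receptors, with Sqstm1 higher and Optn and Tax1bp1 lower in libraries labelled ErbB4myeKO. Of all genes 3.83% were higher and 4.38% were lower at that level. Without the litter block 0 of the 33 were at that level, against 0.854% of all genes tested. In all 6 litters 1 gene was higher (Sqstm1) and 1 was lower (Optn), or 6.06% of the 33 against 4.82% of all genes tested (2.51% higher and 2.31% lower). For none of the 33 did the 6 libraries of one genotype lie apart from the 6 of the other, which happened for 0.0456% of all genes tested. Without litter 5, 1 gene of the 33 was higher and 2 were lower at an unadjusted p under 0.05, against 9.79% of all genes tested, and 0 had an adjusted p under 0.05. Sqstm1 then had a log2 ratio of 0.28 and Optn of -0.32, and Map1lc3b took the place of Tax1bp1 as the other lower gene.

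**Figure D2:**
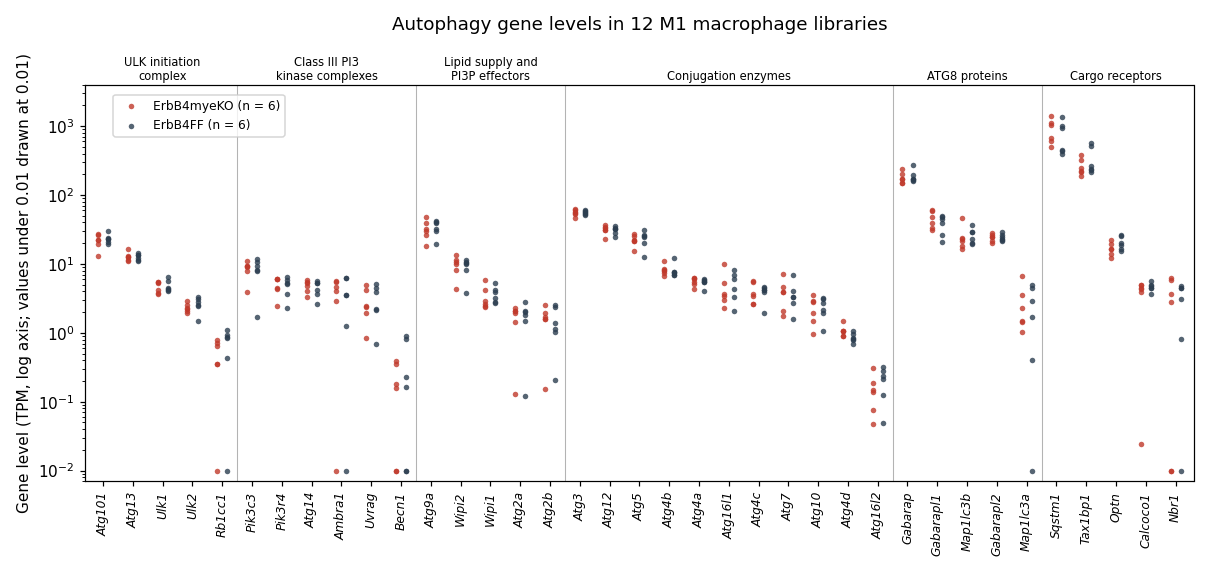
Level of each autophagy gene in TPM on a log axis in the 6 libraries labelled ErbB4myeKO (red) and the 6 labelled ErbB4FF (blue), by role, with 1 point per library and values under 0.01 TPM drawn at 0.01 (Atg9b, at 0 in every library, and Atg4a-ps are not drawn). The colours overlap for every gene, and the levels run from below 1 TPM to 1386 TPM for Sqstm1.

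On average 15 of the 33 genes were higher and 18 lower in libraries labelled ErbB4myeKO, and the median log2 ratio was -0.02, beside -0.00068 over all genes tested. The log2 ratios lay between -0.58 (Calcoco1) and 0.39 (Map1lc3a), and for 22 of the 33 genes the whole 95% interval lay within 0.5 on either side of 0. The intervals that reached further were those of Tax1bp1, Gabarapl1 and genes under 10 TPM. The range of the 6 litter means had a median of 1.02 on the log2 scale over the 33 genes.

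**Figure D3:**
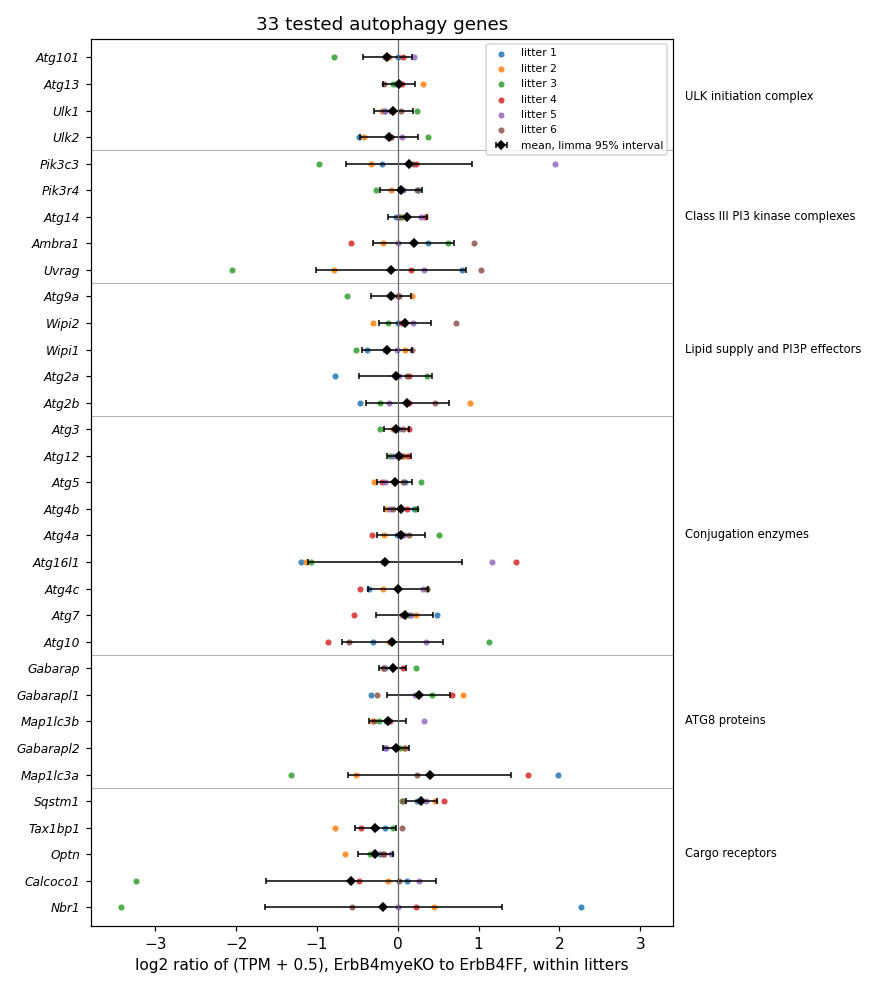
Log2 ratio of (TPM + 0.5), from the library labelled ErbB4myeKO to the one labelled ErbB4FF of the same litter, for the 33 genes tested, with a coloured point for each of 6 litters and a black diamond with bar for the mean and its 95% limma interval. The bars of Sqstm1, Optn and Tax1bp1 do not reach 0, all others cross it, and Atg16l1, Pik3c3, Uvrag, Nbr1, Calcoco1 and Map1lc3a are spread over more than 2 log2 units between litters.

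The cargo receptors were the most abundant role. Of the 5 tested, 1 was higher and 2 were lower at an unadjusted p under 0.05, beside 3.83% and 4.38% of all genes tested, and the role groups were chosen with earlier results of these data known. Their 5 genes held between 52.1% and 76.1% of the summed TPM of the 39 genes in a library (median 68.4%). Their sum was 1177 ± 311 TPM (SD, n = 6) in libraries labelled ErbB4myeKO and 1128 ± 304 TPM (SD, n = 6) in those labelled ErbB4FF. Sqstm1 (ENSMUSG00000015837, chr11:50199366-50210827 of GRCm38, minus strand) encodes p62, which binds ubiquitinated cargo and is itself degraded with it. It was between 506 and 1386 TPM (median 861) in libraries labelled ErbB4myeKO and between 398 and 1338 TPM (median 695) in those labelled ErbB4FF. The groups overlapped almost wholly, but within each litter the library labelled ErbB4myeKO was the higher. The log2 ratios of litters 1 to 6 were 0.23, 0.46, 0.05, 0.58, 0.35 and 0.07, with the larger ones in litters where Sqstm1 was low and the smallest in litter 3, where it was highest. Their mean was 0.29 ± 0.21 (SD, n = 6 litters), a ratio of 1.22-fold. In limma the 95% interval was 0.10 to 0.48 (SE 0.08, p = 0.00911, adjusted p = 0.603), and the exact permutation p was 0.0312, the smallest possible. About 8913 normalized estimated counts stood behind the mean level. The litter means ran from 449 TPM in litter 5 to 1362 TPM in litter 3. Only 1 of the 7 Sqstm1 transcripts in GENCODE M21 is listed, and 98.2% of its 31-mers also occur in the others, so the division of reads among them by kallisto enters its TPM.

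Optn and Tax1bp1 lay on the other side of 0. Like p62 they encode receptors that bind ubiquitin and ATG8 proteins, and they serve in the clearance of mitochondria and bacteria. Optn (ENSMUSG00000026672, chr2:5020642-5064051, minus strand) was between 12.1 and 22.4 TPM (median 16.6) in libraries labelled ErbB4myeKO and between 15.5 and 26.5 TPM (median 19.6) in those labelled ErbB4FF. The library labelled ErbB4myeKO was the lower in 6 of 6 litters, by log2 ratios of -0.23, -0.65, -0.35, -0.18, -0.08 and -0.17. The mean was -0.28 ± 0.20 (SD, n = 6 litters), with a limma interval of -0.49 to -0.07 (SE 0.09, p = 0.0170, adjusted p = 0.603) and an exact permutation p of 0.0312. Of its 2 listed transcripts, the one of 2614 nt held most of the TPM (mean 17.2) and had a log2 ratio of -0.40 (lower in 5 of 6 litters, limma adjusted p = 0.685 over 10085 transcripts). The other, of 2411 nt and a mean of 1.51 TPM, had 0.72 with an interval from -1.28 to 2.72. Tax1bp1 (ENSMUSG00000004535, chr6:52713729-52766780, plus strand), the second most abundant gene of the set, was between 192 and 381 TPM (median 236) in libraries labelled ErbB4myeKO and between 215 and 561 TPM (median 249) in those labelled ErbB4FF. The highest ErbB4FF values, 561 TPM in litter 2 and 524 TPM in litter 4, stand apart from the other 4, which lie at 260 TPM or below. Its log2 ratios were -0.16, -0.78, -0.06, -0.46, -0.27 and 0.06, with a mean of -0.28 ± 0.30 (SD, n = 6 litters) and a limma interval of -0.53 to -0.02 (SE 0.11, p = 0.0374, adjusted p = 0.603, exact permutation p = 0.0938). Without litter 2 the mean was -0.18, and the unadjusted p was above 0.05 when litter 1, 2, 4 or 5 was left out. The transcript-level fit called 1 transcript higher and 2 lower among 38 of these genes at an unadjusted p under 0.05, against 6.72% of all 10085 transcripts.

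**Figure D4:**
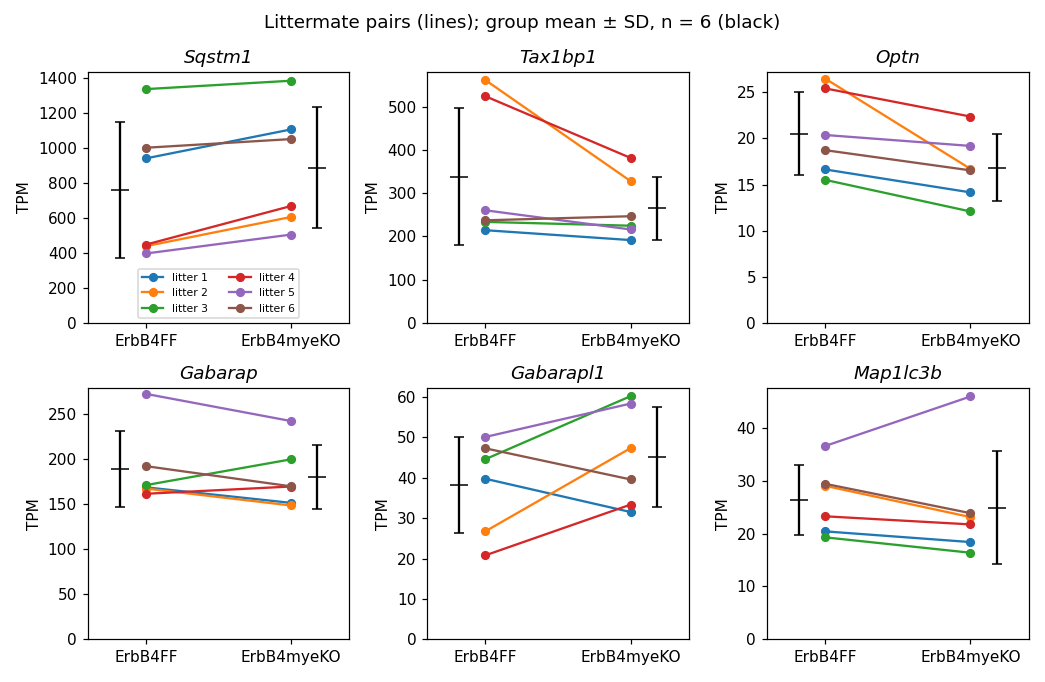
Levels in TPM (axes from 0) of 6 autophagy genes in each litter, with a line from the ErbB4FF to the ErbB4myeKO library of a litter and the group mean ± SD (n = 6) in black. Every Sqstm1 line slopes up and every Optn line slopes down, Tax1bp1 slopes down in 5 of 6 litters, and the Gabarap, Gabarapl1 and Map1lc3b lines run both ways.

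The balance of Sqstm1 and Tax1bp1 differed between litters. Sqstm1 alone held between 27.9% and 64.9% of the summed TPM of the 39 genes (median 48.3%), and Tax1bp1 held between 10.5% and 35.6% (median 14.5%). The quotient of Sqstm1 to Tax1bp1 was above 1 in 10 of 12 libraries, up to 6.16 in the ErbB4myeKO library of litter 3. It was below 1 in the ErbB4FF libraries of litter 2 (0.785) and litter 4 (0.857), whose ErbB4myeKO littermates had 1.85 and 1.76. The activation markers Il12b, Il6 and Tnf and the macrophage marker Fcgr1 also differed most between the littermates of these litters. They were chosen after their values were seen. Of the same lists, Cxcl10, Nos2, Adgre1, Mertk and Lyz2 differed most in litter 6, Itgam in litter 5, and Cd68 and Csf1r in litter 2. Cd40 differed most in litters 2 and 4. The log2 ratios in litters 2 and 4 were 3.399 and 2.43 for Il12b, 2.23 and 1.48 for Il6, 1.76 and 0.84 for Tnf and -2.20 and -1.15 for Fcgr1. Their part in the quotient was not tested. In the other litters the quotients were 5.78 and 4.39 in litter 1, 6.16 and 5.73 in litter 3, 2.34 and 1.53 in litter 5, and 4.26 and 4.22 in litter 6 (ErbB4myeKO first). The quotient was therefore higher in the library labelled ErbB4myeKO of every litter, which describes genes already singled out above and was not tested.

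Calcoco1 and Nbr1, the remaining cargo receptors, were at a few TPM. Calcoco1 (ENSMUSG00000023055), a receptor for the endoplasmic reticulum, had the lowest mean log2 ratio of the set, -0.58 (interval -1.63 to 0.47, limma p = 0.239, adjusted p = 0.707, exact permutation p = 0.375), with litter ratios of 0.11, -0.13, -3.23, -0.48, 0.26 and 0.02. The value rests on the ErbB4myeKO library of litter 3, at 0.0245 TPM where all others lay between 3.64 and 5.56 TPM. Without litter 3 it was -0.04. The libraries of litter 3 held the fewest genes above 0 TPM, 10214 (ErbB4myeKO) and 10910 (ErbB4FF) against 11645 to 12985 elsewhere, and the part of this in the value was not tested. Nbr1, a receptor for peroxisomes and protein aggregates, was listed at 0 in 3 libraries, both of litter 5 and the ErbB4myeKO library of litter 3, and elsewhere reached 6.28 TPM (mean log2 ratio -0.18, interval -1.64 to 1.29).

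The starts of the 3 receptor genes are shown because these genes stood at the lowest unadjusted p of the set in opposite directions. The sequences are the 250 bases before the RefSeq start in GRCm38.p6, read 5′ to 3′ on the strand of the gene. Capitals mark a match to a searched motif.
Sqstm1 (chr11:50210821-50211070, minus strand): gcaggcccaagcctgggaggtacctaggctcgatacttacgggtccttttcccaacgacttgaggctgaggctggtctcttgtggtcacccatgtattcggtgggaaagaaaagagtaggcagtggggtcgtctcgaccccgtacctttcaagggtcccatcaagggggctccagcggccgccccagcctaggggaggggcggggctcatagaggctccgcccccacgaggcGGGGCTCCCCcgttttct
Optn (chr2:5064118-5064367, minus strand): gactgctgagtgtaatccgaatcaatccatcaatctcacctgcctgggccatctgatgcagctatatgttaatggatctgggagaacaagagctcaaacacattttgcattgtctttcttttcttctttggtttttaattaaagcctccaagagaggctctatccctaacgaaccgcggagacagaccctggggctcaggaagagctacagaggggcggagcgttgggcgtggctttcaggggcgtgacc
Tax1bp1 (chr6:52713479-52713728, plus strand): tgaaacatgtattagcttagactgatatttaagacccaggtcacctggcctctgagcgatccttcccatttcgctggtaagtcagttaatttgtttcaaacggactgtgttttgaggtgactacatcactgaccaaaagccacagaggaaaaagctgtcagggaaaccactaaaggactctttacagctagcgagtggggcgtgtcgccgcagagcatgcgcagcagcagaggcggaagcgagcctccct
The searched motifs, on both strands, were CACGTG (the E-box of the TFEB family, 6.02% of 32851 RefSeq promoters of this length), TGACNNNGC (the core of the antioxidant response element, 10.2%), the NF-κB consensus (3.9%), TTTC followed after any 2 bases by TTTC (interferon-stimulated response element, 2.98%), TTCNNNGAA (interferon-γ activated site, 7.02%) and TGANTCA (AP-1, 6.75%). The Sqstm1 window had 63.2% GC and held the NF-κB consensus 18 to 9 bases before the start, and the Optn and Tax1bp1 windows had 50% GC each and held none of the 6 motifs. A second RefSeq start of Tax1bp1, inside the gene, had the antioxidant core in its window. Of the 39 genes 32 had a promoter entry, and the motifs in the order above were found in 3, 3, 2, 0, 4 and 0 of them, the E-box in Atg3, Atg5 and Atg7. A gene was counted if any of its entries held the motif, whereas the percentages are of single entries. These are matches of letters and not sites of binding.

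The ATG8 proteins, which are attached to the autophagosome membrane and bind the receptors, were the next most abundant role and had 0 of 5 genes at an unadjusted p under 0.05. Together they were 277 ± 56.7 TPM (SD, n = 6) in libraries labelled ErbB4myeKO and 280.5 ± 59.9 TPM (SD, n = 6) in those labelled ErbB4FF, and they held a median of 15.4% of the TPM of the set. Gabarap (ENSMUSG00000018567, chr11:69991143-69994951) led at 180 ± 35.5 and 189 ± 42.3 TPM (SD, n = 6 each), above Map1lc3b in 12 of 12 libraries and by between 5.28-fold and 12.2-fold. Its litter log2 ratios were -0.16, -0.17, 0.22, 0.07, -0.17 and -0.18, with a mean of -0.06 (limma interval -0.23 to 0.11, p = 0.409, adjusted p = 0.793, exact permutation p = 0.375), and it was -0.12 without litter 3. Gabarapl1 (ENSMUSG00000030161, chr6:129533160-129542346) had between 31.5 and 60.2 TPM in libraries labelled ErbB4myeKO and between 20.8 and 50.1 TPM in the others. It was higher in litters 2 to 5, with log2 ratios of 0.81, 0.43, 0.67 and 0.22, and lower in litters 1 and 6, with -0.33 and -0.25. The mean of 0.26 had an interval from -0.13 to 0.64 (limma p = 0.161, adjusted p = 0.658, exact permutation p = 0.250), and it was 0.15 without litter 2. Map1lc3b (ENSMUSG00000031812, chr8:121590361-121598760), which encodes the LC3B protein used to follow autophagosomes, was 24.9 ± 10.7 and 26.3 ± 6.55 TPM (SD, n = 6 each). Its litter ratios were -0.15, -0.32, -0.23, -0.10, 0.33 and -0.30, lower in 5 of 6 litters, with a mean of -0.13 (interval -0.36 to 0.10, limma p = 0.232, adjusted p = 0.702, exact permutation p = 0.250). Without litter 5 the mean was -0.22, at an unadjusted p under 0.05 but a limma adjusted p of 0.4996. Gabarapl2 was the steadiest of the family, between 20.1 and 28.9 TPM over the 12 libraries (mean log2 ratio -0.02, interval -0.18 to 0.14). Map1lc3a (ENSMUSG00000027602) was low, at most 6.74 TPM and at 0 in 1 library, and its mean of 0.39 had an interval from -0.62 to 1.40 (litter ratios 1.98, -0.52, -1.33, 1.61, 0.39 and 0.24, limma p = 0.391, adjusted p = 0.784, exact permutation p = 0.438). The mean was 0.08 without litter 1, 0.15 without litter 4, 0.74 without litter 3 and 0.78 with a pseudocount of 0.1.

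The conjugation enzymes had 0 of 9 tested genes at an unadjusted p under 0.05 and a median log2 ratio of 0.0028. Atg3 (ENSMUSG00000022663, chr16:45158785-45188538), which transfers ATG8 proteins to lipid, was the highest at 55.7 ± 6.13 and 56.2 ± 3.25 TPM (SD, n = 6 each). Its range of litter means, 49.6 to 60.5 TPM, was the narrowest of the 33 tested genes on the log2 scale at 0.286. The genotype ratio was -0.02 (interval -0.17 to 0.13, limma adjusted p = 0.943). Atg12, a ubiquitin-like protein joined to ATG5, was 31.5 ± 4.57 and 31.04 ± 3.85 TPM (SD, n = 6 each; ratio 0.02, interval -0.13 to 0.16). Atg5 (ENSMUSG00000038160, chr10:44268358-44364291) was 22.3 ± 4.18 and 23.3 ± 6.26 TPM (SD, n = 6 each). Its litter ratios were 0.08, -0.29, 0.28, -0.20, -0.16 and 0.06, with a mean of -0.04 (interval -0.25 to 0.18, limma p = 0.705, adjusted p = 0.912, exact permutation p = 0.656). Atg7 (ENSMUSG00000030314, chr6:114643097-114860614), the enzyme that activates both ATG8 proteins and ATG12, was between 1.78 and 7.25 TPM in libraries labelled ErbB4myeKO and between 1.58 and 6.97 TPM in the others. It was lowest in litter 3 and highest in litter 6 under both genotypes. Its litter ratios were 0.48, 0.22, 0.13, -0.54, 0.17 and 0.05 (mean 0.09, interval -0.26 to 0.44, limma p = 0.585, adjusted p = 0.872, exact permutation p = 0.562). The mean was 0.0065 without litter 1, 0.21 without litter 4 and 0.20 on the most abundant transcript. Atg16l1 (ENSMUSG00000026289, chr1:87755870-87792428), which places the ATG5 conjugate on the membrane and is a known risk gene of Crohn disease, had ratios of both signs. It was lower in the ErbB4myeKO library by log2 ratios of -1.20, -1.13 and -1.07 in litters 1, 2 and 3, higher by 1.46 and 1.16 in litters 4 and 5, and at -0.19 in litter 6. The mean of -0.16 had an interval from -1.12 to 0.79 (limma p = 0.704, adjusted p = 0.912, exact permutation p = 0.844). Only 1 of its 11 GENCODE transcripts is listed, with 99% of its 31-mers in the others and 82.4 normalized estimated counts. Atg4a shares 74.9% of its 31-mers with other genes, so its 5.48 TPM are uncertain.

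Of the ULK complex 0 of 4 tested genes had an unadjusted p under 0.05, with log2 ratios from -0.13 to 0.02. Atg101, which stabilises ATG13, was the highest, at 21.7 ± 5.19 and 23.4 ± 3.62 TPM (SD, n = 6 each; ratio -0.13, interval -0.43 to 0.17). Atg13, the adaptor of the kinase, followed at 12.9 ± 1.97 and 12.7 ± 1.28 TPM (SD, n = 6 each; ratio 0.02, interval -0.18 to 0.22). The kinase Ulk1 (ENSMUSG00000029512, chr5:110784488-110810097) was between 3.71 and 5.51 TPM in libraries labelled ErbB4myeKO and between 3.99 and 6.40 TPM in the others. Its litter ratios were -0.16, -0.20, 0.24, -0.08, -0.18 and 0.05, with a mean of -0.06 (interval -0.30 to 0.19, limma p = 0.613, adjusted p = 0.882, exact permutation p = 0.469). Its paralog Ulk2 was lower as a level, at 2.33 ± 0.353 and 2.59 ± 0.633 TPM (SD, n = 6 each; ratio -0.11, interval -0.47 to 0.25).

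Of the class III phosphatidylinositol 3-kinase genes 0 of 5 tested had an unadjusted p under 0.05. The catalytic subunit Pik3c3 was 8.41 ± 2.41 and 8.28 ± 3.54 TPM (SD, n = 6 each; ratio 0.14, interval -0.64 to 0.92). Its sign rests on litter 5, where the ErbB4FF library had 1.68 TPM against 7.90 TPM. Without litter 5 the ratio was -0.22. The regulatory subunit Pik3r4 was 4.91 ± 1.45 and 4.80 ± 1.52 TPM (SD, n = 6 each; ratio 0.04, interval -0.22 to 0.29). On its most abundant transcript the ratio was 0.23. Atg14 (ENSMUSG00000037526, chr14:47540893-47570649), which directs the kinase to autophagy, was between 3.34 and 5.89 TPM and between 2.65 and 5.65 TPM. It was higher in 5 of 6 litters, by up to 0.34 in litter 4 (litter ratios -0.03, 0.03, 0.06, 0.34, 0.29 and 0.01), and the mean was 0.12 (interval -0.13 to 0.36, limma p = 0.298, adjusted p = 0.736, exact permutation p = 0.0938). It was 0.07 without litter 4 and 0.08 on the most abundant transcript. Uvrag, which takes the place of ATG14 in the endosomal complex, ranged from -2.06 in litter 3 to 1.03 in litter 6 on the log2 ratio scale, with a mean of -0.09 (interval -1.02 to 0.84). Ambra1, a scaffold of the complex, was at 0 in both libraries of litter 5 (ratio 0.20, interval -0.31 to 0.70).

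The genes for lipid supply and for binding of phosphatidylinositol 3-phosphate had 0 of 5 tested at an unadjusted p under 0.05. Atg9a, the scramblase of ATG9 vesicles, was 32.1 ± 10.1 and 33.7 ± 8.54 TPM (SD, n = 6 each; ratio -0.08, interval -0.33 to 0.17). Its TPM came mainly from a pair of transcripts with means of 17.6 and 15.2 TPM, whose ratios were 0.26 and -0.09. Between 44.2% and 48.1% of the 31-mers of its listed transcripts occur in another gene, so its level is uncertain. Wipi2, which recruits ATG16L1, was 9.66 ± 3.17 and 9.04 ± 2.80 TPM (SD, n = 6 each; ratio 0.09, interval -0.23 to 0.41). Wipi1 was 3.41 ± 1.41 and 3.69 ± 0.967 TPM (SD, n = 6 each; ratio -0.13, interval -0.45 to 0.18). The lipid transfer proteins Atg2a and Atg2b were below 3 TPM in every library, with ratios of -0.03 and 0.12.

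The 6 genes below the filter were not fitted. Atg4d, a protease of ATG8 proteins, was 1.08 ± 0.217 and 0.858 ± 0.127 TPM (SD, n = 6 each). Rb1cc1, the FIP200 scaffold of the ULK complex, was 0.474 ± 0.295 and 0.700 ± 0.410 TPM, and Atg16l2 was 0.150 ± 0.0910 and 0.203 ± 0.1004 TPM. Becn1 (ENSMUSG00000035086, chr11:101285952-101302286), which encodes the core subunit Beclin 1, was at most 0.387 TPM in libraries labelled ErbB4myeKO and at most 0.906 TPM in the others. Only 1 of the 17 Becn1 transcripts in GENCODE M21 is listed, with 3.48 normalized estimated counts. The others were not analysed here, so this is a value of that transcript and not of the gene. Atg4a-ps, named as a pseudogene, was at 0 in 10 of 12 libraries, and Atg9b was listed at 0 in all 12.

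Genes of the pathway outside the set gave 0 calls as well. Of 57 such genes, 52 were tested and 0 had an adjusted p under 0.05 in limma. At an unadjusted p under 0.05 there were 0 higher and 1 lower, against 3.83% and 4.38% of all genes tested, and the median log2 ratio was -0.03. The 1 was Rubcn (ENSMUSG00000035629), which encodes Rubicon, an inhibitor of the class III kinase in autophagy that is needed for LC3-associated phagocytosis. It was between 0.505 and 2.92 TPM (median 1.16) in libraries labelled ErbB4myeKO and between 1.41 and 4.02 TPM (median 2.75) in those labelled ErbB4FF. It was lower in litters 1 to 5, by log2 ratios of -1.33, -0.96, -1.71, -0.63 and -0.55, and 0.09 higher in litter 6. The mean of -0.85 had an interval from -1.42 to -0.28 (SE 0.24, limma p = 0.00922, adjusted p = 0.603, exact permutation p = 0.0625). Mlst8, a subunit of mTORC1, which represses autophagy, came next at 6.10 ± 1.12 against 4.93 ± 0.668 TPM (SD, n = 6 each), with a ratio of 0.28 (interval -0.01 to 0.56, higher in 5 of 6 litters, limma p = 0.0565, adjusted p = 0.603, exact permutation p = 0.0938). Vps11, of the HOPS tether that joins autophagosomes to lysosomes, was 14.5 ± 2.34 against 16.0 ± 1.82 TPM (SD, n = 6 each), lower in 6 of 6 litters by a mean log2 ratio of -0.15 (interval -0.32 to 0.02, limma p = 0.0802, adjusted p = 0.603, exact permutation p = 0.0312). Prkaa1, of AMPK, was higher in 6 of 6 litters by a mean of 0.61 (interval -0.20 to 1.43, limma p = 0.120, exact permutation p = 0.0312), with 2.70 in litter 5. Of all genes tested 4.82% had the same direction in all 6 litters. By list, 9 of 10 genes of mTORC1 and AMPK control, 4 of 6 transcription factors, 11 of 11 kinase and phagophore cofactors, 14 of 14 fusion genes and 14 of 16 organelle receptors were tested. Retreg1, a receptor for the endoplasmic reticulum, was at 0 in all 12 libraries.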

How the data were processed

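The authors pseudoaligned single-end reads of 75 bp with kallisto (mm10 per the labels; no version given in the sources used here) and deposited TPM of the transcripts that APPRIS marks as principal, in 1 table of 29213 lines. The 405 lines that repeat a transcript were dropped, and TPM of 28808 transcripts were summed over 22243 genes. Per library, 59.0% to 74.7% of all TPM lay in these transcripts. TPM carry no depth. The authors also deposited the mean natural log of normalized estimated counts per transcript (from sleuth), whose exponential is given here as the counts behind a level. Columns with the authors' own test of genotype (p-values, q-values, test statistics and log2 ratios) were not used.

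Log2(TPM + 0.5) of 8780 genes was modelled in R 4.3.3 (limma 3.58.1; lmFit and trended eBayes) on genotype plus a litter block. Litter is the number on the labels, and the deviations of littermate libraries from their group means had r between 0.273 and 0.774 across genes in the 6 litters. Single genes were also tested by exact permutation. Shared 31-mers and positions come from GENCODE M21 (GRCm38). Python 3.11.15 with pandas 2.3.3 and numpy 2.4.6 was used, and matplotlib 3.10.9 for figures. Tested on simulated TPM of 8780 genes with 200 changed, the fit made 151 calls, 10 of them false, and found 55% of the changes of log2 size 1 and 86% of those of size 2. Changes below size 1, such as those of Sqstm1, Optn and Tax1bp1, were not simulated, so their recovery is unknown. The p-values of fits with the litter block, and those of the permutation test, rest on the spread over litters of the difference between littermate cultures. Each culture came from a single mouse.

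The autophagy genes, role groups, pathway genes and marker lists were chosen with earlier results of these data known, and no test was run over a list. Genes described in full are the 4 with the smallest p in each direction, the 4 most abundant, and Map1lc3b, Sqstm1, Becn1, Ulk1, Atg5, Atg7 and Atg16l1, with up to 3 of the most abundant per role and the 3 pathway genes with the smallest p. Other genes are named to account for every member. Alternatives were no litter block, a covariate from 4 Y-linked genes, a pseudocount of 0.1 or 1, no filter, a mean of at least 5 TPM, median-ratio scaling, rescaling of the listed transcripts to a common sum, no trend, the transcript with the highest mean, and each litter left out. Protein sequences were not used here.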

Additional observations from a re-analysis of the deposited data

Results flagged for a closer look

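Of 52 groups of 6 libraries, those of 26 named genes under each genotype, 5 held a library far from the rest by Dixon's criterion, where chance gives about 1 in 20. Map1lc3b was 45.9 TPM in the ErbB4myeKO library of litter 5, and the nearest library of that genotype had 23.9 TPM. Gabarap was 272.6 TPM in the ErbB4FF library of litter 5 (nearest of that genotype 192 TPM). Pik3c3 was 1.68 TPM in the ErbB4FF library of litter 5 (nearest of that genotype 7.99 TPM). Calcoco1 was 0.0245 TPM in the ErbB4myeKO library of litter 3 (nearest of that genotype 3.85 TPM). Atg13 was 16.6 TPM in the ErbB4myeKO library of litter 2 (nearest of that genotype 13.2 TPM). Of these 5 values, 3 are from the 2 libraries of litter 5, the litter that stood apart by transcript length, and the part of length in these values was not tested.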

How the results depend on the processing

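No autophagy gene had an adjusted p under 0.05 in limma under any of the 16 alternatives, and the smallest was 0.4996; of all genes 1, not an autophagy gene, passed without litter 3 (adjusted p = 0.0486). With no replicate block, which leaves the pairing of littermates out, the counts at an unadjusted p under 0.05 were 0 higher and 0 lower in place of 1 and 2 (0.854% of all genes were at that level). The lower count was 1 after rescaling to a common sum and 1 without trend, where Tax1bp1 was no longer counted (7.57% and 7.53% of all genes in either direction). Leaving out each litter gave 1 higher throughout and 1 to 2 lower, against 4.67% of all genes without litter 2 to 9.79% without litter 5, and a median log2 ratio from -0.04 to 0.02. For the other pathway genes the higher count was 1 in place of 0 with the Y-linked covariate, 1 after rescaling and 1 without trend, and the lower count was 2 without a filter and 0 at a mean of at least 5 TPM, which removes Rubcn; with each litter left out they ran from 0 to 1 and from 1 to 2. Sqstm1 was at an unadjusted p under 0.05 under every alternative but that without the block, as was Optn. Of 391 alternative values of 25 genes, 375 kept their direction and 16 reversed, all of them of genes with an unadjusted p of 0.28 or more there. Atg3 became 0.0025 after rescaling, Atg9a 0.26 on its most abundant transcript, and Wipi2 -0.0058 with the Y-linked covariate. Over the litters left out, Atg3 ran from -0.047 to 0.024, Atg5 from -0.10 to 0.014, Atg16l1 from -0.49 to 0.047, Atg12 from -0.0068 to 0.038, Atg9a from -0.14 to 0.024, Wipi2 from -0.035 to 0.17, Atg101 from -0.20 to 0.0013, Atg13 from -0.039 to 0.058, Pik3c3 from -0.22 to 0.36 and Pik3r4 from -0.0052 to 0.098. Ulk1 (-0.11 to -0.03) and Wipi1 (-0.20 to -0.06) moved by over 1.5 times without a change of sign. So did Tax1bp1, Calcoco1, Gabarapl1, Gabarap, Map1lc3b, Map1lc3a, Atg14 and Atg7, with values given above. The cause of these changes was not tested. The paper gives an approximate depth per sample, but the read count of each library is unknown.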
